A study of Mus musculus with 24 samples.

Results

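Immediate early genes are the genes that a cell transcribes within minutes of a stimulus from factors it already holds, with no new protein needed, and their mRNAs decay fast. Kinase cascades and calcium signals act on serum response factor at CArG boxes and on CREB at cyclic AMP response elements in their promoters. Most of their products are transcription factors: Fos, Fosb, Jun and Junb pair into the AP-1 factor, Egr1, Egr2 and Egr3 are zinc finger factors, Nr4a1 is an orphan nuclear receptor, Ier2 is a small nuclear protein, and Dusp1 is the phosphatase that switches mitogen-activated protein kinases off again. In bone marrow they are known to respond to cytokines, adhesion and stress in myeloid and lymphoid cells.

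The 10 genes Fos, Fosb, Jun, Junb, Egr1, Egr2, Egr3, Nr4a1, Ier2 and Dusp1 were taken by name from the array annotation, whatever their values. They are 10 of 24507 genes tested, measured by 13 of the 41174 non-control probes of an Agilent two-colour mouse array. Their behaviour was followed across 10 groups of genotype and treatment.

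All mice were C57BL/6J females at 6 weeks of age, and total RNA was taken from their bone marrow after an intraperitoneal injection. The vehicle was olive oil. Benzo[a]pyrene (BP) is a polycyclic aromatic hydrocarbon, as is DMBA, whose full name is 7,12-dimethylbenz[a]anthracene; enzymes of the Cyp1 family oxidise both to reactive products. TCDD, the chlorinated dioxin with chlorine at positions 2, 3, 7 and 8, resists metabolism. All 3 compounds activate the aryl hydrocarbon receptor (AhR). Each array carried a pool of 9 samples that the labels do not describe further, and the protocol text gives a single dose of 50 mg/kg for all agents. Wild-type (WT) mice received oil (3 arrays), BP for 6 h (2 arrays), DMBA for 12 h (3 arrays) or TCDD for 12 h (3 arrays). Cyp1b1-null mice received oil (2 arrays) or DMBA for 12 h (2 arrays), and Cyp1a1-null mice received oil (3 arrays) or BP for 12 h (3 arrays). Mice lacking both genes, called double-null here, received oil (1 array) or BP for 12 h (2 arrays). The labels give no collection time for the oil groups, and BP in WT marrow was read at 6 h only, so that time and genotype both differ from the BP arrays of the null strains.

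Every array held the sample in Cy3 (green) and a common reference in Cy5 (red), a pool of marrow from oil-treated WT mice, with no dye swap. The value used throughout is the log ratio log2(Cy3/Cy5), on which a step of 1 is a 2-fold change; a change is the difference between 2 group means of it, given with its standard error (SE). The kept probe of each of the 10 genes was well above background in Cy3 on all 24 arrays. The probe for Cyp1a1 was not above background in Cy3 on any Cyp1a1-null or double-null array, whereas the Cyp1b1 probe was not lower in the strains labelled Cyp1b1-null, so it checks nothing. The arrays lay on 10 slides, most groups lay on a single slide, and arrays of the same slide correlated at a mean of 0.679 over probes (23 pairs) against 0.208 for arrays of different slides (253 pairs). A slide held both groups compared only for DMBA against oil in WT and for BP against oil in Cyp1a1-null and double-null marrow. In every other comparison of a pair of groups, slide cannot be told apart from treatment or strain. The lowest correlation of any pair was -0.345, between Cyp1b1-null oil replicate 1 and WT oil replicate 3; the labels state the dyes, so the direction was kept.

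The array labelled WT oil replicate 1 stood apart from the other 23. The standard deviation of its log ratios over probes was 1.10, and the log ratios of all 10 members were above those of WT oil replicates 2 and 3: 4.46 for Nr4a1, 3.80 for Fos, 2.98 for Egr2, 2.63 for Egr1, 2.16 for Junb, 2.11 for Jun, 1.76 for Ier2, 1.54 for Dusp1, 1.09 for Egr3 and 0.90 for Fosb. The reference channel of this array differed for several members. Fos stood at percentile 62.3 of the Cy5 signals of that array, against 86.0 to 94.4 on the others, Nr4a1 at 86.3 against 97.9 to 99.2, and Egr2 at 50.7 against 73.9 to 81.2. All members but Egr1 and Dusp1 lay below the Cy5 range of the other arrays, and Egr1 lay above it (90.5 against at most 88.8). In Cy3 all 10 members lay within the range of the other arrays, BP arrays included. Against WT oil replicates 2 and 3 alone, Egr1 was at 98.2 in Cy3, against 89.9 and 90.3. Jun was at 89.1 against 82.8 and 83.8, and Dusp1 at 97.0 against 93.3 and 94.8. Junb, Egr2, Nr4a1 and Ier2 were also above those replicates in Cy3, and Fos, Fosb and Egr3 below. In Cy5 of that array the median percentile of 9 liver marker genes was 99.7 and that of 10 neutrophil markers was 81.5, where the other 23 arrays had at most 42.6 and at least 98.8. The liver markers were high in its sample channel too, at a median Cy3 percentile of 95.6 against at most 39.3 elsewhere. In its Cy3 channel Cyp1a1 was at percentile 65.5 and well above background, as it was on the WT BP and DMBA arrays and not on WT oil replicates 2 and 3. Its Cy5 percentile was as high, at 65.2, and its log ratio was 0.03. On the BP arrays Cyp1a1 was at 12.9 and 10.3 in Cy5, with log ratios of 1.71 and 1.94. Cxcl2, a neutrophil chemokine, was at 90.2 in Cy3, against 57.7 and 65.5 on WT oil replicates 2 and 3 and 92.6 and 92.3 on the BP arrays. Markers of marrow were present throughout, with 10 of 10 neutrophil and 10 of 10 erythroid markers well above background on all arrays. What made the array differ was not tested. Each comparison is therefore given first with all arrays and then without this array.

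**Figure D1:**
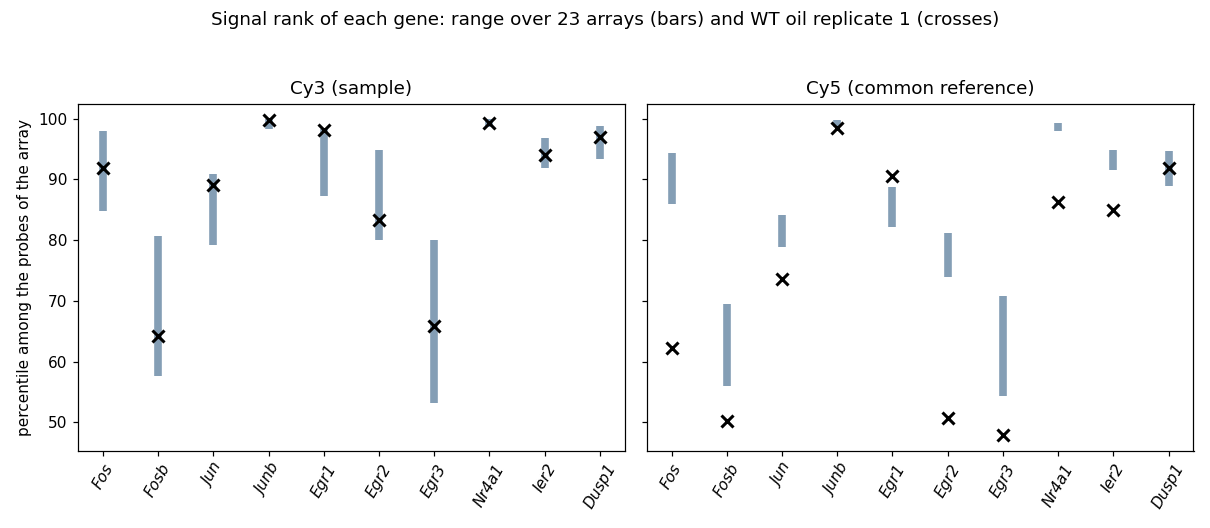
Percentile of each gene's signal among all probes of an array, in Cy3 (the sample, left) and Cy5 (the common reference, right); bars span the 23 other arrays and crosses mark WT oil replicate 1. The crosses lie inside the bars in Cy3. In Cy5 all but Egr1 and Dusp1 fall below them, Fos (62.3), Egr2 (50.7) and Nr4a1 (86.3) among these, and Egr1 (90.5) lies above its bar.

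Stretches just upstream of the start are shown for some of the members that had a promoter entry. RefSeq promoters of build GRCm38.p6, 300 bases each from 250 before to 50 after a start, were at hand for 7 members (Fos, Fosb, Jun, Junb, Egr2, Nr4a1, Dusp1; 11 entries). The capitals mark every CArG box and every TGACG on either strand, where TGACG is the first part of the cyclic AMP response element TGACGTCA and so overlaps it.
Fos, chr12:85473740-85473889, plus strand: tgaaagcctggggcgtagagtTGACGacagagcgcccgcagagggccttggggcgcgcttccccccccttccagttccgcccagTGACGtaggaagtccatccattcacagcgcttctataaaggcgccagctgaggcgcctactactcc
Junb, chr8:84978749-84978898, minus strand: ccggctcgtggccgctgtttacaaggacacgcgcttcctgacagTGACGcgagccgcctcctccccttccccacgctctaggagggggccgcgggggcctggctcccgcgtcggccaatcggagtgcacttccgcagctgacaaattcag
Dusp1, chr17:26508473-26508622, minus strand: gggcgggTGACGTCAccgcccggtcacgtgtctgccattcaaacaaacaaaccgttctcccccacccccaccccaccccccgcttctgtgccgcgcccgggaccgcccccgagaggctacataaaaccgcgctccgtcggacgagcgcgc
Egr2, chr10:67537490-67537519, plus strand: ttctCCTTTTTTGGaaagtctcggagaacc
Egr2, chr10:67537793-67537822, plus strand: cagtCCATATATGGgcagcgaCGTCAcggg
Nr4a1, chr15:101266786-101266815, plus strand: cgcccccgcccctctccatgCGTCAcggag
Of the 7 members, 6 held TGACG on at least 1 strand of an entry (all but Jun), as did 20.81% of all 32851 promoters of the table. Egr2 alone of the 7 held a CArG box, found in 1.629% of all promoters, and Dusp1 alone held TGACGTCA, found in 1.79%. The xenobiotic response element core GCGTG, to which AhR binds, was in the windows of 4 members (Fos, Fosb, Junb and Nr4a1) and in 32.39% of all promoters, and the AP-1 element TGANTCA was in none of the members' windows and in 7.808% of all. A match here is a run of letters and was not tested as a binding site. Sequence outside these windows was not searched, so a motif absent here can lie further away.

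On the same build the genes themselves lie at chr12:85473890-85477274 (Fos), chr7:19302696-19310118 (Fosb), chr4:95049036-95052222 (Jun), chr8:84976909-84978748 (Junb), chr10:67534469-67542188 (Egr2), chr14:70077317-70082613 (Egr3), chr15:101253902-101274795 (Nr4a1), chr8:84661331-84662852 (Ier2) and chr17:26505591-26508472 (Dusp1), and Egr1 is on chromosome 18. The Junb probe was saturated in Cy3 on the single double-null oil array and on double-null BP replicate 1, and in Cy5 on 5 arrays; the Nr4a1 probe was saturated in Cy5 on 4 arrays, those of slide 9. Genes with a pair of probes agreed to different degrees over the 24 arrays: the Junb probes correlated at 0.939, the Ier2 probes at 0.565 and the Egr3 probes at -0.140, the second Egr3 probe being above background on 6 arrays only. Egr3 values are therefore those of a single probe that its partner does not follow.

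Marrow taken 6 h after BP had the highest mean log ratio of these genes of any group, 1.80 over the 10 members, against 0.31 in WT oil replicates 2 and 3. With all arrays, no member was called in limma at an adjusted p under 0.05 (0 of 10, against 0.824% of the genes tested; 4 with p below 0.05 before adjustment). On WT oil replicate 1, Fos, Jun, Junb, Egr3, Nr4a1 and Ier2 lay above both BP arrays. Without WT oil replicate 1, 8 of 10 were called higher after BP, where 1.5% of all genes were, and all 10 had both BP arrays above both oil arrays, as had 23.2% of all genes. The median change of the 10 was 1.44, against 0.02 for all genes.

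Among the Egr genes, Egr2 and Egr1 were called higher after BP in the fit without WT oil replicate 1, and Egr3 was not. Egr2, an early factor also used in monocyte differentiation, had log ratios of 3.34 and 2.88 after BP, and of 0.47 and 0.65 on oil replicates 2 and 3 (2.98 on replicate 1). Its change without replicate 1 was 2.55 ± 0.30 (adjusted p = 0.000686). Egr1, the family member most often read as a stimulus marker, was at 3.19 and 2.90 after BP, and at 0.41 and 0.99 on the same oil arrays, a change of 2.34 ± 0.63 (adjusted p = 0.0463). Both pairs of BP arrays were thus well clear of these oil arrays. Egr3 moved little, from 0.62 and 0.68 to 0.93 and 0.96, a change of 0.29 ± 0.53 (adjusted p = 0.834).

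Of the 4 AP-1 genes, Junb, Jun and Fosb were called higher after BP. Junb, which encodes a Jun protein with weaker growth-promoting activity than Jun, was at 1.47 and 1.37 after BP and at -0.19 and 0.55 on oil, a change of 1.24 ± 0.27 (adjusted p = 0.0178). Jun was at 1.21 and 0.85, against 0.09 and -0.06, a change of 1.01 ± 0.22 (adjusted p = 0.0191). Fosb was at 1.09 and 1.14, against 0.44 and 0.08, a change of 0.86 ± 0.22 (adjusted p = 0.0380). In each of the 3 the BP arrays lay above oil replicates 2 and 3. On oil replicate 1, Junb (2.16) and Jun (2.11) lay above both BP arrays, and Fosb (0.90) lay below them. Fos, the partner of the Jun proteins in AP-1, was at 1.98 and 2.34 after BP, but its oil arrays were far apart, at -0.03 and 0.99, and its change of 1.68 ± 0.49 did not pass (adjusted p = 0.0656).

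In the same fit, without WT oil replicate 1, the 3 remaining members were all called. Dusp1, the phosphatase of the group, was at 2.32 and 2.23 after BP and at -0.21 and 0.43 on oil, a change of 2.17 ± 0.42 (adjusted p = 0.0103). Nr4a1 was at 1.55 and 1.79, against 0.13 and -0.07, a change of 1.64 ± 0.27 (adjusted p = 0.00440). Ier2 was at 1.05 and 1.40, against -0.07 and 0.38, a change of 1.07 ± 0.18 (adjusted p = 0.00515). These gaps between the BP arrays and oil replicates 2 and 3 were larger than the gaps within either pair.

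The calls after BP rest on few arrays and on how the spread is estimated. Both BP arrays lay on 1 slide that held no oil array, so slide and treatment cannot be told apart; with slide as a random block no member was called (Egr2 2.46, adjusted p = 0.0773; Nr4a1 1.61, adjusted p = 0.170), nor were any with the spread taken from WT oil and BP arrays alone, and leaving out either BP array left 3 called, Egr2 and Nr4a1 both times. Median centring with no intensity correction took the changes down to 1.87 for Egr2, 1.36 for Dusp1 and 0.27 for Ier2, with none called and 9 of 10 above 0. Other transcripts also differed between these arrays. The median log ratio of 9 monocyte and macrophage markers was 0.60 and 0.52 on the BP arrays and 0.01 and 0.16 on oil replicates 2 and 3, the summed Cy3 signal of 9 megakaryocyte markers, in units of each array's 75th percentile, was 18.3 and 10.3 against 31.7 and 36.2, the log ratio of Cxcl2 was 4.31 and 4.23 against 0.23 and 0.64, and the median of 8 heat shock genes was -0.53 and -0.38 against -0.15 and -0.23. Their part in the members' values was not tested. In whole marrow, a change in the share of a cell type and a change of RNA per cell cannot be told apart.

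**Figure D2:**
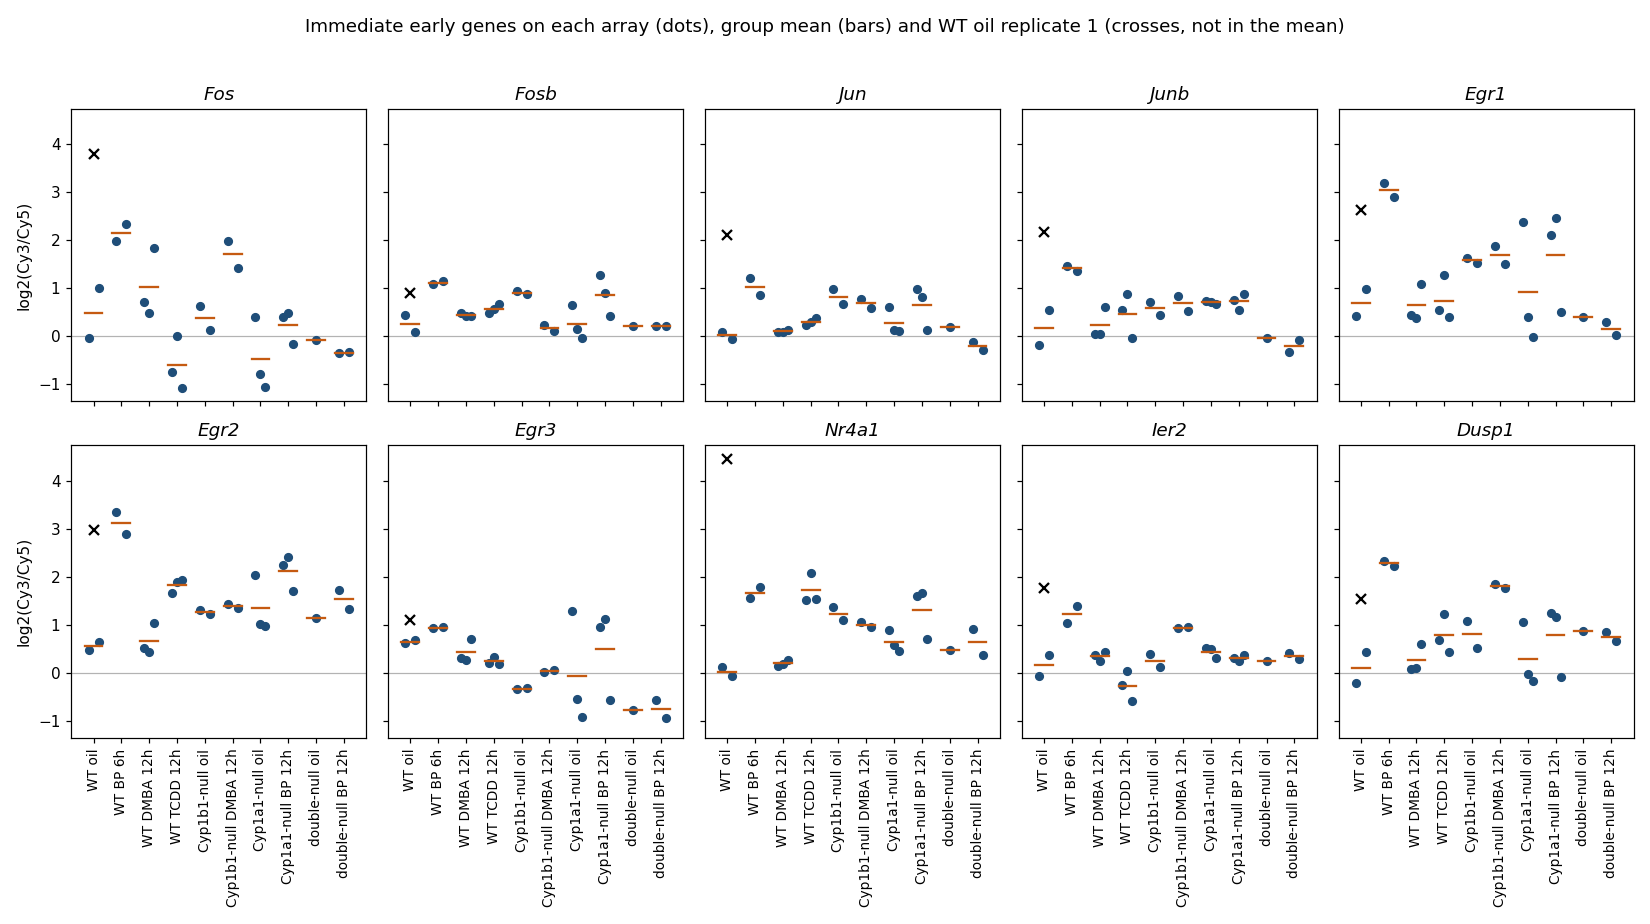
Log ratio log2(Cy3/Cy5) of each of the 10 genes on every array, by group; dots are arrays, bars group means, and crosses WT oil replicate 1, which the means leave out. The BP 6 h arrays are highest or near highest for most genes (Egr2 3.34 and 2.88), and the Cyp1a1-null groups are spread widely, as for Egr1 from -0.02 to 2.46.

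Of 24 other early-response genes listed, 23 were tested. Without WT oil replicate 1, 6 of these were called higher after BP, 0 lower and 17 not, where 1.5% of all genes were called higher, and their median change was 0.48. They were Ier3 (1.59 ± 0.22), an NF-kB and stress-inducible survival gene, Maff (1.51 ± 0.27), a small Maf factor, Trib1 (1.36 ± 0.33), a pseudokinase of myeloid cells, Atf3 (1.04 ± 0.18), a stress-induced factor that pairs with Jun, Dusp4 (0.72 ± 0.18), a nuclear phosphatase, and Gadd45b (0.65 ± 0.15), a stress sensor. With all arrays Maff alone was called, at 1.34 ± 0.27 (adjusted p = 0.0317). None of the 13 upstream kinases and factors tested, among them Srf and Creb1, was called after BP in limma with or without the array.

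DMBA for 12 h left the members close to the level of WT oil replicates 2 and 3 in WT marrow. With all arrays 0 of 10 changes were above 0 and their median was -0.59. Without WT oil replicate 1, 8 were above 0 and the median was 0.13. The mean log ratio of the 10 after DMBA was 0.43, and no member was called with all arrays (0 of 10, and 0% of genes; 0 below 0.05 before adjustment) or without WT oil replicate 1 (0 of 10, and 0.0979% of genes; 0 below 0.05 before adjustment). Egr2 was at 0.52, 0.43 and 1.04 after DMBA and Dusp1 at 0.08, 0.11 and 0.61, each overlapping with oil, with changes of 0.11 ± 0.28 and 0.16 ± 0.38. Fos was at 0.71, 0.49 and 1.85, a change of 0.53 ± 0.45 (adjusted p = 0.834). DMBA replicate 3, from another slide, was the highest of its group for every member but Fosb.

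Slide 2 held DMBA replicates 1 and 2 beside WT oil replicate 2. Within it Fos was higher after DMBA by 0.63, Ier2 by 0.38, Dusp1 by 0.31 and Junb by 0.23, and Egr3 differed by -0.33. With a single oil array on the slide these differences are given without a test.

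After TCDD for 12 h, Nr4a1 and Egr2 were above the level of WT oil replicates 2 and 3. No member was called with all arrays (0 of 10, against 2.13% of genes; 2 below 0.05 before adjustment). The median change of the 10 was then -0.40, with 4 above 0, and 0.28 without WT oil replicate 1, with 7 above 0. Without WT oil replicate 1, 2 of 10 were called higher, where 2.24% of all genes were. Nr4a1, a receptor induced by antigen receptor and inflammatory signals, was at 1.53, 2.09 and 1.54 after TCDD, a change from oil of 1.69 ± 0.24 (adjusted p = 0.00321). Egr2 was at 1.66, 1.90 and 1.92, a change of 1.27 ± 0.28 (adjusted p = 0.0194). For both genes all TCDD arrays lay above oil replicates 2 and 3, as they did for 19.3% of all genes. Fos was at -0.74, -0.0011 and -1.08, a change of -1.09 ± 0.45 that did not pass (adjusted p = 0.140), and Egr1 was at 0.54, 1.27 and 0.40, a change of 0.03 ± 0.57.

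Heat shock genes stood high on the TCDD arrays: Hspa1a had log ratios of 3.18, 2.99 and 2.58, against -0.10 and -0.11 on oil replicates 2 and 3, and the median over 8 heat shock genes was 0.66, 0.35 and 0.25; their part in the members' values was not tested. All TCDD arrays shared 1 slide, and neither gene was called with slide as a random block (Nr4a1 1.66, adjusted p = 0.237) or with the spread of the groups compared alone; without WT oil replicate 3 or TCDD replicate 3, 1 was left. Median centring left Egr2 at 0.01 and Nr4a1 at 0.31, whereas Cy3 alone gave 1.95 and 1.29, both called, with Fosb called higher and Junb called lower beside them. Log ratios of Ahrr, a gene induced by AhR, were uneven on the TCDD arrays, at 0.05, 0.17 and 1.24. Its percentiles there were alike, at 67.1, 66.0 and 65.8 in Cy3 and 37.3, 36.3 and 36.0 in Cy5. A log ratio on these arrays can thus be small where the ranks in Cy3 and Cy5 differ. Other early-response genes called higher after TCDD were Klf4 (1.18 ± 0.27), Jund (1.27 ± 0.35) and Dusp4 (0.61 ± 0.17), 3 of 23, and of the upstream list 2 of 13 were lower, among them Mkl1 (-0.80 ± 0.13), the SRF coactivator. Over all genes, 2.24% were called higher and 3.92% lower.

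**Figure D3:**
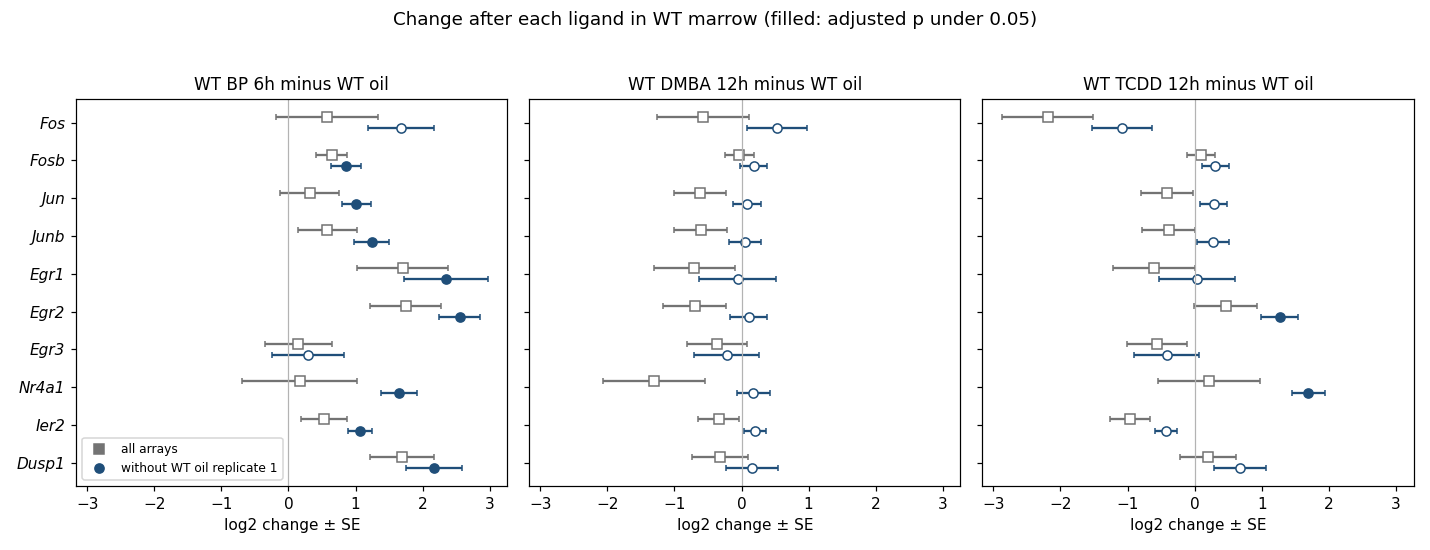
Change of each gene after BP at 6 h, DMBA at 12 h and TCDD at 12 h against WT oil, as log2 difference ± SE, with all arrays (squares) and without WT oil replicate 1 (circles); filled symbols were called at an adjusted p under 0.05. Filled circles are seen for 8 genes after BP, none after DMBA, and Egr2 and Nr4a1 after TCDD; no square is filled.

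DMBA and TCDD were read at the same time and were also set against each other without the oil arrays, the only pair of compounds compared. The labels give 1 dose figure for all agents, and whether it holds for TCDD cannot be told from them, so that a matched dose is not certain. With all arrays no member was called (0 of 10, against 0.645% of genes; 2 below 0.05 before adjustment), and with the spread estimated without WT oil replicate 1, 4 of 10 were, where 6.25% of all genes were called. Nr4a1 was lower with DMBA, at 0.15, 0.18 and 0.28 against 1.53, 2.09 and 1.54, a difference of -1.52 ± 0.22 (adjusted p = 0.00103). Egr2 was lower as well, by -1.16 ± 0.25 (adjusted p = 0.0100). Fos and Ier2 went the other way: Fos differed by 1.62 ± 0.40 (adjusted p = 0.0223) and Ier2, at 0.38, 0.24 and 0.43 with DMBA and -0.26, 0.03 and -0.58 with TCDD, by 0.62 ± 0.15 (adjusted p = 0.0180). The arrays of the pair of groups did not overlap for any of these 4, nor for 31.9% of all genes.

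The 6 other members did not pass, with 95% intervals of the difference from -0.51 to 0.25 for Fosb, -0.58 to 0.18 for Jun, -0.68 to 0.24 for Junb, -1.17 to 0.99 for Egr1, -0.73 to 1.11 for Egr3 and -1.24 to 0.21 for Dusp1. With slide as a random block none of the 4 was called (Nr4a1 -1.55, adjusted p = 0.155), median centring left Egr2 at 0.01 with the sign turned, and leaving out single arrays changed how many were called: 2 without DMBA replicate 3, 2 without TCDD replicate 1 and 1 without TCDD replicate 3. Klf4 was lower with DMBA (-1.27 ± 0.25), Fosl2 (1.15 ± 0.27) and Nr4a2 (0.65 ± 0.17) were higher, and 4 of 13 upstream genes were higher, among them Mkl1 (0.80 ± 0.12), Elk3 (0.72 ± 0.13) and Mapk3 (0.61 ± 0.16).

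In oil-treated Cyp1b1-null marrow many genes of the array were called, and the signs of the members called depended on the scaling. With all arrays no member was called (0 of 10, against 15.4% of genes; 1 below 0.05 before adjustment). The median change of the 10 was then -0.18, with 4 above 0, and 0.67 without WT oil replicate 1, with 8 above 0. Without WT oil replicate 1, 3 of 10 were called higher, in a comparison where 17.3% of all genes were. Nr4a1 was at 1.37 and 1.09, a change of 1.20 ± 0.27 (adjusted p = 0.00425), Jun at 0.97 and 0.67, a change of 0.81 ± 0.22 (adjusted p = 0.0128), and Fosb at 0.95 and 0.87, a change of 0.65 ± 0.22 (adjusted p = 0.0342). Each pair lay above oil replicates 2 and 3, as was true of 37.2% of all genes. Egr3 lay below these replicates, as did 27.2% of all genes. It was at -0.34 and -0.32, a change of -0.98 ± 0.53 that did not pass (adjusted p = 0.175).

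The direction of these 3 depended on the scaling: median centring gave -0.46 for Nr4a1, -0.88 for Jun and -0.63 for Fosb, and on Cy3 alone none was called. Both Cyp1b1-null oil arrays lay on slide 7, which held no WT oil array, so slide and genotype cannot be told apart. The other arrays of slide 7 were Cyp1a1-null BP replicates 1 and 2. They had Jun at 0.98 and 0.82 and Fosb at 1.27 and 0.91. Slide as a random block left none called (Nr4a1 0.88, adjusted p = 0.110), and without Cyp1b1-null oil replicate 1, or without WT oil replicate 3, 1 was left. Of the 23 other early-response genes tested, 3 were higher (Maff 1.16 ± 0.27, Dusp6 1.02 ± 0.27, Dusp4 0.57 ± 0.18). Lower were 4, among them Fosl1 (-0.70 ± 0.23), Nr4a2 (-0.68 ± 0.21) and Ier3 (-0.67 ± 0.22). The upstream list of 13 was split, with Srf (0.55 ± 0.19) and Mkl1 (0.49 ± 0.14) higher and 2 lower, among them Map2k1 (-0.46 ± 0.15). Such calls were common here: 17.3% of all genes were called higher and 12.3% lower. On these 2 arrays the summed Cy3 signal of 10 B lineage markers was 83.0 and 92.5, in units of each array's 75th percentile, against 183 and 214 on WT oil replicates 2 and 3. Hspa1a had log ratios of 0.76 and 1.28, against -0.10 and -0.11 on those replicates. The median of the 8 heat shock genes was 0.22 and 0.38, against -0.15 and -0.23. Their part in the members' values was not tested.

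After DMBA in Cyp1b1-null marrow, Ier2 was the one member called. With all arrays no member was called against Cyp1b1-null oil (0 of 10, against 0.0245% of genes; 1 below 0.05 before adjustment), and with the spread estimated without WT oil replicate 1, 1 of 10 was higher, where 3.33% of genes were. Ier2 was at 0.93 and 0.95 after DMBA and at 0.39 and 0.11 after oil, a change of 0.69 ± 0.18 (adjusted p = 0.0297). Dusp1 was at 1.84 and 1.76, against 1.09 and 0.51, and Fos at 1.99 and 1.43, against 0.63 and 0.13; their changes of 1.00 ± 0.42 and 1.33 ± 0.49 did not pass (adjusted p = 0.151 and 0.0995). Fosb lay lower after DMBA, at 0.24 and 0.12, a change of -0.73 ± 0.22 (adjusted p = 0.0520). In Cy3 alone, as log2 over each array's 75th percentile, the mean of Fosb was -0.56 after DMBA and -0.31 after oil. None of these 4 genes had overlapping arrays, as was true of 72.8% of all genes, and the 2 groups lay on different slides, so slide and treatment cannot be told apart; Ier2 differed by 0.0015 on Cy3 alone and by 3.57 under median centring, where all 10 members were called, and the call ended without any 1 of the 4 arrays and with slide as a random block (adjusted p = 0.668).

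Against DMBA-treated WT marrow no member was called in the Cyp1b1-null DMBA arrays, with all arrays (0 of 10, against 0.102% of genes; 1 below 0.05 before adjustment) or without WT oil replicate 1 (0 of 10, against 1.57% of genes; 5 below 0.05 before adjustment). The nearest was Dusp1, at 1.84 and 1.76 against 0.08, 0.11 and 0.61, a difference of 1.53 ± 0.38 (adjusted p = 0.0554); with the spread of these 2 groups alone it was called, with Jun, Nr4a1 and Ier2. The response to DMBA was not shown to differ between the strains for any member, with all arrays (0 of 10, against 0.00816% of genes; 1 below 0.05 before adjustment) or without that array (0 of 10, against 3.04% of genes; 1 below 0.05 before adjustment). Its largest difference there was Fosb, -0.91 ± 0.30 (adjusted p = 0.0959). Of the other early-response genes, Klf2 (0.77 ± 0.22), Ier5 (0.81 ± 0.24) and Ier3 (0.76 ± 0.22) were higher after DMBA than after oil in this strain. On the Cyp1b1-null DMBA arrays Ahrr had log ratios of 0.35 and 0.07. Its percentiles were 71.2 and 64.9 in Cy3 and 40.4 and 48.8 in Cy5, so small log ratios occur here too where ranks differ.

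In Cyp1a1-null marrow the members differed more between arrays of the same group than between oil and BP. Egr1 was at 2.37, 0.40 and -0.02 on the oil arrays and at 2.11, 2.46 and 0.49 on the BP arrays. Egr3 was at 1.29, -0.55 and -0.92 and at 0.94, 1.12 and -0.56, and Dusp1 at 1.06, -0.02 and -0.17 and at 1.25, 1.16 and -0.08. For all 3, oil replicate 1 and BP replicates 1 and 2 were high, and oil replicates 2 and 3 and BP replicate 3 were low. Fos followed the same split, at 0.39, -0.78 and -1.05 and at 0.39, 0.49 and -0.17, as did Nr4a1, at 0.90, 0.57 and 0.46 and at 1.60, 1.65 and 0.70, and likewise Fosb, Jun and Egr2. The Nr4a1 and Junb probes were saturated in Cy5 on the 4 arrays of slide 9, so their log ratios there are upper bounds, and Junb is not read further in this strain. Ier2 did not follow the split, running from 0.32 to 0.51 on oil and from 0.25 to 0.37 after BP.

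This order was not that of the treatment labels, which other genes followed. Ahrr, the AhR repressor induced by AhR itself, was at 0.16, -0.14 and -0.12 on the oil arrays and at 2.42, 3.07 and 2.23 on the BP arrays, and Spint1 at -0.02, -0.10 and 0.24 and at 3.25, 3.54 and 3.13. These genes and Cxcl2 were chosen after their values were seen. The order of the members followed the slides except for oil replicate 1. Oil replicates 1 to 3 and BP replicate 3 shared slide 9, where only oil replicate 1 was high. The other BP arrays were high and shared another slide. The part of the slide in this split was not tested. Heat shock and chemokine transcripts were split as the members were: Hspa1a was at 3.35, 1.86 and 1.67 and at 3.17, 2.54 and 1.86, the median of the 8 heat shock genes at 0.67, 0.02 and 0.07 and at 0.66, 0.36 and 0.06, and Cxcl2 at 2.24, 0.63 and 0.53 and at 2.49, 2.22 and 0.95. The summed Cy3 signal of 10 B lineage markers was 216, 119 and 135 on the oil arrays and 184, 239 and 164 on the BP arrays, and that of 10 neutrophil markers 553, 611 and 666 and 439, 470 and 708. Their part in the members' values was not tested.

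**Figure D4:**
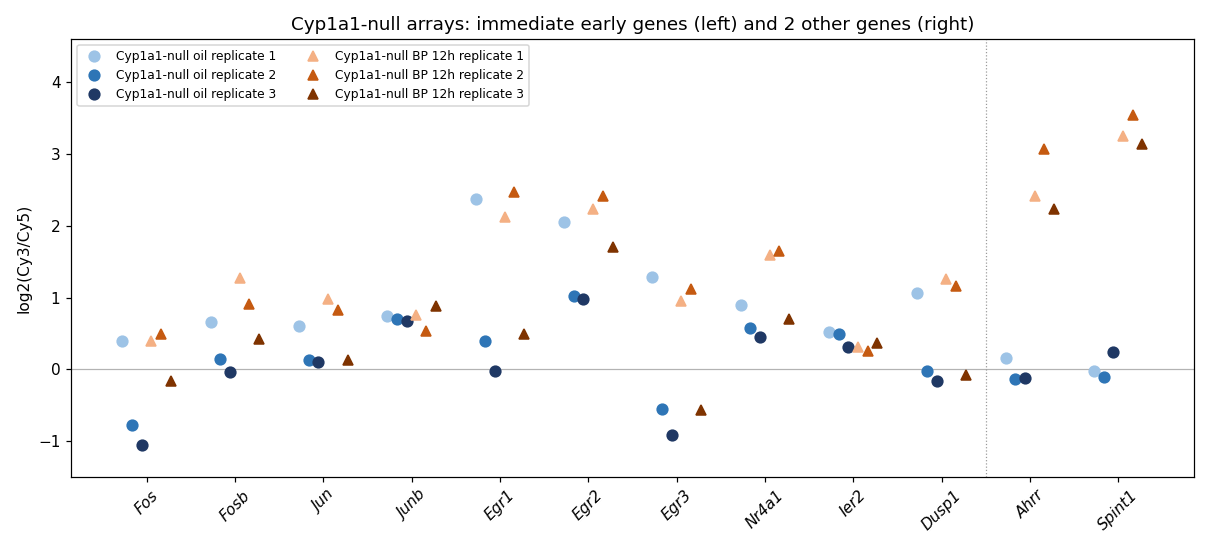
Log ratio log2(Cy3/Cy5) of the 10 immediate early genes, and of Ahrr and Spint1 to the right of the dotted line, on each Cyp1a1-null array (circles oil, triangles BP at 12 h). Ahrr and Spint1 separate the treatments, whereas for Egr1, Egr3 and Dusp1 oil replicate 1 lies with BP replicates 1 and 2 and BP replicate 3 with oil replicates 2 and 3.

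No member was called for BP against oil in this strain, with all arrays (0 of 10, against 0.0326% of genes; 1 below 0.05 before adjustment) or without WT oil replicate 1 (0 of 10, against 0.155% of genes; 3 below 0.05 before adjustment), and all 10 genes had overlapping arrays, where 14.6% of all genes had none. The changes without that array were 0.77 ± 0.25 for Egr2 (adjusted p = 0.0835), 0.61 ± 0.18 for Fosb and 0.78 ± 0.51 for Egr1. They rested on BP replicate 3: left out as well, 7 of 10 were called higher, where 21.3% of all genes were, with Egr1 at 1.37, Egr2 at 0.98 and Fosb at 0.83. The BP arrays were then all on slide 7 and the oil arrays all on slide 9, so treatment and slide cannot be told apart there. Within slide 9, where BP replicate 3 stood against the 3 oil arrays, the differences were -0.42 for Egr1, -0.50 for Egr3, -0.37 for Dusp1, and 0.36 for Egr2, and none was called.

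Against WT oil, Cyp1a1-null oil marrow gave no call among the members with all arrays (0 of 10, against 3.6% of genes; 1 below 0.05 before adjustment) or without WT oil replicate 1 (0 of 10, against 7.59% of genes; 4 below 0.05 before adjustment). With all arrays 0 of 10 changes were above 0 and their median was -0.36. Without WT oil replicate 1, 7 were above 0 and the median was 0.24. In that second fit Egr2 had the largest positive change, 0.79 ± 0.28 (adjusted p = 0.0916), and Fos the largest negative, -0.96 ± 0.45 (adjusted p = 0.195). Of the other early-response genes Jund (1.68 ± 0.35) and Gadd45b (0.46 ± 0.13) were higher, and of the upstream list 0 of 13 were called.

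Double-null marrow had the lowest mean over the 10 members, 0.26 on the oil array and 0.21 on the BP arrays. No member was called for BP against oil with all arrays (0 of 10, against 0.282% of genes; 0 below 0.05 before adjustment) or without WT oil replicate 1 (0 of 10, against 0.518% of genes; 0 below 0.05 before adjustment), the single oil array being assumed to vary like the rest. Egr1 was at 0.41 on the oil array and at 0.29 and 0.02 after BP, Jun at 0.18 and at -0.12 and -0.28, and Fos at -0.08 and at -0.35 and -0.33. Ahrr was at -0.06 on the oil array and at 2.87 and 2.55 after BP. Junb was saturated in Cy3 on the oil array, so its value there is a bound and no change is given. The oil array did not differ from WT oil in any member at the threshold, with all arrays (0 of 10, against 1.61% of genes; 1 below 0.05 before adjustment) or without WT oil replicate 1 (0 of 10, against 6.1% of genes; 1 below 0.05 before adjustment); Egr3 was at -0.77, a change of -1.42 ± 0.65 (adjusted p = 0.189), and Nr4a3, of the wider early-response list, was called higher at 0.67 ± 0.18.

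After BP at 12 h, Jun and Junb were the members called lower in double-null than in Cyp1a1-null marrow, in the fit without WT oil replicate 1. With all arrays no member was called (0 of 10, against 0.135% of genes; 3 below 0.05 before adjustment), and without WT oil replicate 1, 2 of 10 were lower, where 1.96% of all genes were. The double-null BP arrays lay on slide 10 and the Cyp1a1-null BP arrays on slides 7 and 9, so slide and strain cannot be told apart. Jun was at -0.12 and -0.28 in double-null and at 0.98, 0.82 and 0.12 in Cyp1a1-null marrow, a difference of -0.85 ± 0.20 (adjusted p = 0.0299). Of the Cyp1a1-null values, 0.98 and 0.82 were on slide 7 and 0.12 on slide 9. Junb was at -0.32 and -0.08 against 0.76, 0.54 and 0.88, with an adjusted p of 0.0448, but its probe was saturated in both channels on double-null BP replicate 1 and in Cy5 on Cyp1a1-null BP replicate 3, so no size is given for its difference. For 6 members, Fos, Fosb, Jun, Junb, Egr1 and Egr3, the double-null arrays lay below the Cyp1a1-null arrays, as they did for 15.2% of all genes and for Egr3 by a narrow margin (-0.57 and -0.94 against a lowest value of -0.56), and Egr1 differed by -1.54 ± 0.57 (adjusted p = 0.138).

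The sign of both depended on the scaling: Junb was at 0.49 under median centring and 0.55 on Cy3 alone, and Jun at 0.48 and -0.62. Leaving out either of Cyp1a1-null BP replicates 1 and 2 or either double-null BP array ended both calls, while leaving out Cyp1a1-null BP replicate 3 gave 6 called lower, where 13.6% of all genes were, and slide as a random block gave none (Jun adjusted p = 0.788). The BP response itself was not shown to differ between the strains, with all arrays (0 of 10, against 0.135% of genes; 0 below 0.05 before adjustment) or without WT oil replicate 1 (0 of 10, against 0.204% of genes; 1 below 0.05 before adjustment), the nearest being Jun, at -0.75 ± 0.33 (adjusted p = 0.374). Of the upstream list 1 of 13 was lower in double-null than in Cyp1a1-null marrow after BP, Elk3 (-0.72 ± 0.15), an ETS partner of SRF, and of the early-response list 0 of 23 were called.

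The members varied among arrays of the same group to very different degrees. Without WT oil replicate 1, the within-group standard deviation of the log ratio, pooled over groups, was 0.71 for Egr1, 0.60 for Egr3, 0.55 for Fos and 0.47 for Dusp1, at the 99.6th, 98.9th, 98.4th and 96.7th percentile of all genes tested, whose median was 0.17. The Cyp1a1-null oil and BP groups were widest for Egr1 (1.28 and 1.05) and Egr3 (1.18 and 0.92). In no other group did it pass 0.47 for Egr1 or 0.26 for Egr3. The pooled spread enters the SE of every comparison, also of those without this strain. Egr2 was at 0.34, Nr4a1 and Junb at 0.29, Jun at 0.24, Fosb at 0.23 and Ier2 at 0.19, the last at the 57.5th percentile. On these 23 arrays the log ratio of Fos ran from -1.08 to 2.34. The span between the lowest and the highest array was 9.28-fold for Egr1, 7.48-fold for Egr2 and 5.80-fold for Dusp1, and 2.46-fold for Fosb and 2.82-fold for Jun.

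Ordered by the mean over the 10 members, the groups ran from WT BP 6 h (1.80) through Cyp1b1-null DMBA (1.01), Cyp1a1-null BP (0.92), Cyp1b1-null oil (0.75), WT TCDD (0.57), Cyp1a1-null oil and WT DMBA (both 0.43), WT oil without replicate 1 (0.31) and double-null oil (0.26) to double-null BP (0.21). BP at 6 h stood clear, and neighbours from Cyp1b1-null DMBA down differed by less than the Cyp1a1-null arrays did within a group. Egr1 followed the mean of the members most closely, with a correlation of 0.978 over the 10 group means, then Junb (0.916), Jun (0.890) and Dusp1 (0.847), and Egr3 least (0.597). Each member is part of that mean, so these correlations are high in part by construction, more so for members with a wide range. Over the same 10 group means the genes outside the lists, which are not part of it, most like the mean of the members were Il1b (r = 0.934), the inflammatory cytokine, LOC100047628 (0.931), the unnamed transcripts AK035249 (0.921) and ENSMUST00000106702 (0.918), Gbp2 (0.909), a guanylate-binding protein induced by interferon, NAP101217-1 (0.876), Tmem179b (0.875) and Pink1 (0.863), the mitochondrial kinase. Il1b itself had a mean of 2.65 after BP at 6 h, of 2.12 in Cyp1b1-null marrow after DMBA and of 0.44 in WT oil without replicate 1. These correlations describe group means that share slides and the common reference.

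The authors' deposited table gives a single log2 value per probe for each of the 9 comparisons they list, with its normalization not given in the sources used here. In the authors' deposited table all 10 members were above 0 for BP at 6 h, with a median of 1.37 and values of 2.53 for Egr2, 2.43 for Egr1 and 2.40 for Dusp1. For TCDD the authors' deposited table has 1.79 for Nr4a1, 1.48 for Egr2 and -1.11 for Fos, and 7 of 10 members above 0. For Cyp1b1-null DMBA against Cyp1b1-null oil that table differs more from the values here. It has 9 of 10 members above 0 and a median of 0.555, against 7 and 0.11 here. Fosb is at -0.13 there, against -0.73 here. Over genes, the authors' deposited table correlated with the changes computed here at 0.70 for BP and 0.77 for TCDD without WT oil replicate 1, and at 0.33 and 0.38 with all arrays, although the headers of that table name all 3 WT oil arrays.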

How the data were processed

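The scanner files give 1 spot per row with mean and background intensity in both channels, deposited by the authors as Feature Extraction output (versions 9.1.3.1 and, for slide 9, 10.7.3.1, per the file headers). The series table deposited by the authors holds log2 differences for 9 comparisons; the submitters' processing notes name limma, and its version and settings are not given there. Gene positions and promoters are those of RefSeq on GRCm38.p6.

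Intensities were corrected with normexp (offset 50) and normalized by loess within each array, outlier-flagged spots were dropped, spots of a probe were averaged, and the brightest probe of each gene name was kept where Cy3 was well above background on at least 3 arrays. One fit of all 24 arrays with 10 group means was made in limma 3.58.1 (statmod 1.5.0, R 4.3.3), with Benjamini-Hochberg adjustment over 24507 genes and calls at an adjusted p under 0.05, for 14 comparisons; 13 genes lack a value on the double-null oil array. The fit was tested on simulated data. Arrays limit the precision by their number, and as each is a pool, p-values measure only the spread between these arrays. Of the listed early-response and upstream genes, Dusp5 and Elk1 were not tested by name. The values of 1 upstream gene are not reported here.

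The members and all gene lists were chosen with earlier results of these data known. All 10 members are reported in every comparison; other listed genes are named where called, at most 6 per comparison, and the 8 genes most alike by correlation. Alternatives changed the background correction, the scaling, the filter, the probe rule, the slide and replicate blocks, the arrays left out and the arrays that share the spread.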

Additional observations from a re-analysis of the deposited data

How the results depend on the processing

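Counts are of the 10 members called. With all arrays no member was called in any comparison, and no count changed under another background correction, probe rule, prior, slide block or replicate block. Median centring without loess called 7 for TCDD, 8 for Cyp1b1-null oil, 10 for Cyp1b1-null DMBA, 2 for DMBA against TCDD, 3 for DMBA-treated Cyp1b1-null against WT, 2 for double-null against Cyp1a1-null BP and 9 for the difference in DMBA response, with Fosb at -0.85 and Jun at -1.43 in Cyp1b1-null oil, where Nr4a1 ran from -1.06 without WT oil replicate 3 to 1.20 without replicate 1. Cy3 alone called 2 for BP, 4 for TCDD, 1 each for Cyp1b1-null and Cyp1a1-null oil, 5 for DMBA against TCDD and 2 for DMBA-treated Cyp1b1-null against WT. The groups compared alone called 5, 2 and 4 for Cyp1b1-null DMBA, DMBA against TCDD and DMBA-treated Cyp1b1-null against WT, and slide 2 alone, with 1 oil array, called 5 for WT DMBA, where 29.6% of all genes were called. Leaving out 1 array gave 0 to 8 for BP, 0 to 2 for TCDD, 0 to 3 for Cyp1b1-null oil, 0 to 4 for DMBA against TCDD, 0 to 2 for double-null against Cyp1a1-null BP and 0 to 1 for Cyp1b1-null DMBA, Cyp1a1-null oil and Cyp1a1-null BP.

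Without WT oil replicate 1 the counts were 8 for BP, 2 for TCDD, 3 for Cyp1b1-null oil, 1 for Cyp1b1-null DMBA, 4 for DMBA against TCDD, 2 for double-null against Cyp1a1-null BP and 0 elsewhere. The sign of all 8 BP calls held in all 15 alternatives. With slide as a random block all 6 counts were 0. Median centring gave 0 for BP, 4 for TCDD, 5 for Cyp1b1-null oil, 10 for Cyp1b1-null DMBA, 8 for DMBA-treated Cyp1b1-null against WT and 9 for the difference in DMBA response; it turned Fosb (-0.63), Jun (-0.88) and Nr4a1 (-0.46) in Cyp1b1-null oil, Egr2 (0.011) for DMBA against TCDD, and Jun (0.48) and Junb (0.49) in double-null against Cyp1a1-null BP, as Cy3 alone did Junb (0.55). Cy3 alone gave 5 for BP, 4 for TCDD, 0 for Cyp1b1-null oil, 0 for Cyp1b1-null DMBA, 2 for Cyp1a1-null oil, 2 for DMBA-treated Cyp1b1-null against WT and 0 for double-null against Cyp1a1-null BP. No background subtraction gave 0 for Cyp1b1-null DMBA, 4 for DMBA-treated Cyp1b1-null against WT and 0 for double-null against Cyp1a1-null BP, and processed signals gave 0, 2 and 0 there and 3 for BP. The mean of all probes gave 0 for Cyp1b1-null DMBA and 1 for double-null against Cyp1a1-null BP, and a trended robust prior 0 for both, 1 for TCDD and 2 for DMBA against TCDD. The groups compared alone gave 0 for BP, TCDD and double-null against Cyp1a1-null BP, 5 for Cyp1b1-null DMBA, 2 for DMBA against TCDD, 4 for DMBA-treated Cyp1b1-null against WT and 1 for the difference in DMBA response. Leaving out a further array gave 3 to 9 for BP, 1 to 3 for TCDD, 1 to 4 for Cyp1b1-null oil, 0 to 3 for Cyp1b1-null DMBA, 0 to 7 for Cyp1a1-null BP, 1 to 4 for DMBA against TCDD, 0 to 3 for DMBA-treated Cyp1b1-null against WT, 0 to 6 for double-null against Cyp1a1-null BP, and 0 to 1 for Cyp1a1-null oil and both differences in response. The cause was not tested.

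The same-numbered arrays did not pair: their deviations correlated at -0.25 to 0.34. A replicate block, with WT oil replicate 1 left out, gave 6 for BP, 2 for Cyp1b1-null DMBA and 1 for Cyp1a1-null BP.

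Slide as a fixed term gave values only for groups that share a slide, and the single double-null oil array could not be left out. Signals in Cy3 were above background for all members, so the number of arrays and slides limits precision.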
